A study of Mus musculus with 50 samples.

Results

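The libraries described here come from blood progenitors of mice with a mutant Flt3 gene, sorted either as LSK cells (lineage negative, Sca1 positive, Kit positive) or as GMP (granulocyte-monocyte progenitors). They were chosen by their labels: Flt3 mutant genotype, cell type LSK or GMP, and a time point of 4, 6 or 8 weeks. This gave 9 LSK and 8 GMP libraries, 17 of the 50 samples of the series. One more library of these groups, the second GMP replicate at 8 weeks, held only 1942 counts in 988 genes and was left out. Each week has 3 LSK libraries, and GMP have 3 at 4 weeks, 3 at 6 weeks and 2 at 8 weeks. The other groups used are 6 WT libraries (3 LSK and 3 GMP at 4 weeks) and 6 Flt3 mutant libraries at 2 weeks (3 of each cell type).

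The series as a whole profiles sorted and lineage negative progenitors of mice with Flt3, Npm1 and Dnmt3a mutations. According to the labels the mutations were switched on by a Cre, Dre or Flp recombinase. The recombinase driver, the Flt3 allele, the mouse strain and age, the markers of the GMP gate and what the weeks are counted from are not given in the sources used here. No label says that libraries came from separate animals, so p-values measure the spread between these libraries. Flt3 mutant library codes carry 1 prefix and WT codes another, so what differs by genotype cannot be told apart from what differs by code.

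Flt3 is a receptor tyrosine kinase of early blood progenitors. Its ligand drives their survival and their output of lymphoid and dendritic cells, and activating mutations, common in acute myeloid leukemia, signal without ligand, in part through STAT5 and the MAPK cascade. LSK cells hold the blood stem cells and the multipotent progenitors. GMP are further along the myeloid path, are about to give rise to neutrophils and monocytes, and already make the proteins of the primary (azurophilic) granules. A comparison of LSK with GMP within the mutant asks which parts of this step from multipotent to myeloid-committed cell are seen in the presence of the mutation. In these bulk libraries fewer cells of a type and less RNA per cell cannot be told apart.

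Total counts ran from 306571 to 3030228 in the 9 LSK and from 572370 to 1761371 in the 8 GMP libraries, with 10528 to 13867 and 11050 to 12842 genes detected. Levels below are CPM (a gene's counts scaled to a fixed library total), given as the lowest, the median and the highest library of a group. They are not scaled by gene length, so they compare libraries and not genes. A difference is LSK minus GMP on the log2 scale with its standard error, from edgeR's quasi-likelihood test with week as a covariate. "Rose" and "higher" mean higher in LSK and "fell" and "lower" mean lower in LSK, and a gene is called at a Benjamini-Hochberg adjusted p under 0.05.

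The genes of the sort were read first. Ly6a, which encodes the Sca1 antigen of the LSK gate, had 87.8, 161 and 353 CPM in LSK and 3.34, 14.3 and 18.1 in GMP. Fcgr3, a low-affinity Fc receptor of myeloid cells, had 0, 4.54 and 10 CPM in LSK and 51.8, 75.8 and 175 in GMP. Both pairs of groups were fully apart in the direction of the labels, by 3.93 ± 0.27 and -4.23 ± 0.28. Kit, the stem cell factor receptor, had 53.4, 72.9 and 117 CPM in LSK and 54.1, 71.3 and 107 in GMP, a difference of -0.13 ± 0.13 (edgeR adjusted p = 0.579). Cd34, a sialomucin of progenitors, had 662, 860.5 and 967 CPM in LSK and 669, 736 and 809 in GMP, a difference of 0.17 ± 0.07 (edgeR adjusted p = 0.0992). The groups overlapped for both. As the cells were sorted on proteins of this kind, these values check the labels and are no finding.

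Markers of long-term stem cells were low in the LSK libraries. Procr, the endothelial protein C receptor, had 0, 2.81 and 11 CPM in LSK and 0, 3.02 and 7.1 in GMP and did not pass the filter on low counts. Without the filter it differed by 0.36 ± 0.53 (edgeR adjusted p = 0.721). The transcription factors Hlf and Mecom and the adhesion gene Esam were low but higher in LSK: Hlf had 1.57, 11.2 and 27.3 CPM in LSK against 0, 1.38 and 4.45 in GMP, Mecom 0, 10.9 and 17.8 against 0, 2.79 and 5.24, and Esam 0, 6.45 and 13 against 0, 0 and 1.11. The differences without the filter were 2.44 ± 0.45 for Hlf and 2.08 ± 0.44 for Mecom (edgeR adjusted p = 1.71e-06 and 5.24e-05). Esam was at 0 in most GMP libraries, so no fold is given for it. The groups overlapped for all 4 genes.

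Of the markers of other cells the gates could hold, the summed CPM of 19 basophil, mast cell and eosinophil genes ran from 516 to 682 in LSK and from 1333 to 2944 in GMP, without overlap. The sum of 14 erythroid genes was 166 to 373 in LSK against 68.1 to 127 in GMP. The sums of 15 macrophage genes (22.6 to 77.6 against 36.8 to 135), 12 T and NK cell genes (600.2 to 828 against 507 to 902) and 14 mature B and plasma cell genes (356 to 541 against 333 to 453) overlapped. The basophil, mast cell and eosinophil list holds Fcer1g, the shared Fc receptor gamma chain. The T and NK cell list holds Nkg7, which is also in the primary granule list. The sums of these lists thus do not count such cells alone. Cd3e, Cd3g and Trac of T cells and Cma1, Mcpt4 and Tpsb2 of mast cells had no count in any of the 17 libraries. A sum of 22 MHC class II and dendritic cell genes was 5483 to 32452 in LSK and 4972 to 13355 in GMP. Its highest value came from the third LSK replicate at 8 weeks, which also has the lowest total count. This library and the third GMP replicate at 8 weeks share the code number 14 and stand apart from the rest, with raised Xcr1 in both, so the counts of calls were repeated without them. Mitochondrially encoded genes took 0.603 to 0.6998% of the counts in 3 libraries, these 2 and the second LSK replicate at 8 weeks, against 0.274 to 0.347% in the other 14.

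LSK and GMP of the mutant differed in 1362 of 8680 genes tested, 15.7% (edgeR adjusted p under 0.05). Of these, 656 (7.56%) were higher in LSK and 706 (8.13%) lower, and the median difference over all genes tested was 0.01. A difference of at least 2-fold was called for 398 genes (4.59%), 254 higher in LSK (2.93%) and 144 lower (1.66%). For 345 genes (3.97%) no LSK library overlapped any GMP library. Without the code number 14 libraries 1354 genes were called, without the 3 libraries of high mitochondrial share 1322, and at 4, 6 and 8 weeks taken alone 530, 546 and 459, with fewer libraries each.

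The 12 largest rises and 12 largest falls were taken only from called genes without overlap and at a mean log2 CPM of at least 4. Their lack of overlap is thus no finding. Among the 12 largest rises in LSK were 5 genes known from lymphoid cells, Dntt, Lck, Lat, Ly6d and Lax1. Dntt encodes terminal deoxynucleotidyl transferase, which adds untemplated bases to antigen receptor joints. It had 251, 319 and 563 CPM in LSK and 1.75, 6.01 and 8.43 in GMP, a difference of 5.86 ± 0.21 (edgeR adjusted p = 2.10e-15), the largest rise of all genes tested. Lck, a Src-family kinase of T cell receptor signalling, had 121, 203 and 222 CPM in LSK and 6.31, 16.4 and 22.7 in GMP, a difference of 3.61 ± 0.15 (edgeR adjusted p = 2.06e-18). Lat, the membrane adaptor of the same pathway, had 58.7, 132 and 184 CPM in LSK and 0, 7.84 and 16.7 in GMP and differed by 4.01 ± 0.27 (edgeR adjusted p = 8.47e-10). In all 3 genes every LSK library was above every GMP library, as this choice required. Ly6d, a surface marker of lymphoid progenitors committed to the B lineage, rose by 3.96 ± 0.48 and Lax1, a lymphocyte adaptor, by 4.09 ± 0.43.

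Of 23 lymphoid priming genes found, 13 passed the filter, 10 were called higher and 1 lower, with a median of 0.67 against 0.01 over all genes. Without the third LSK replicate at 8 weeks 8 of the list were called higher, and 9 without both code number 14 libraries. Without the 3 libraries of high mitochondrial share 8 were called higher. The 10 that did not pass the filter include Rag1, Rag2, Il7r, Ebf1 and Pax5, the recombinase, interleukin 7 receptor and B cell factor genes that follow on the path to B cells. A gene that is high in only 1 cell type passes the filter through that type alone, so counts among genes that passed describe the lists and do not compare them with chance. Counts of this and the other lists stand beside 7.56% called higher and 8.13% called lower over all genes tested.

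**Figure D1:**
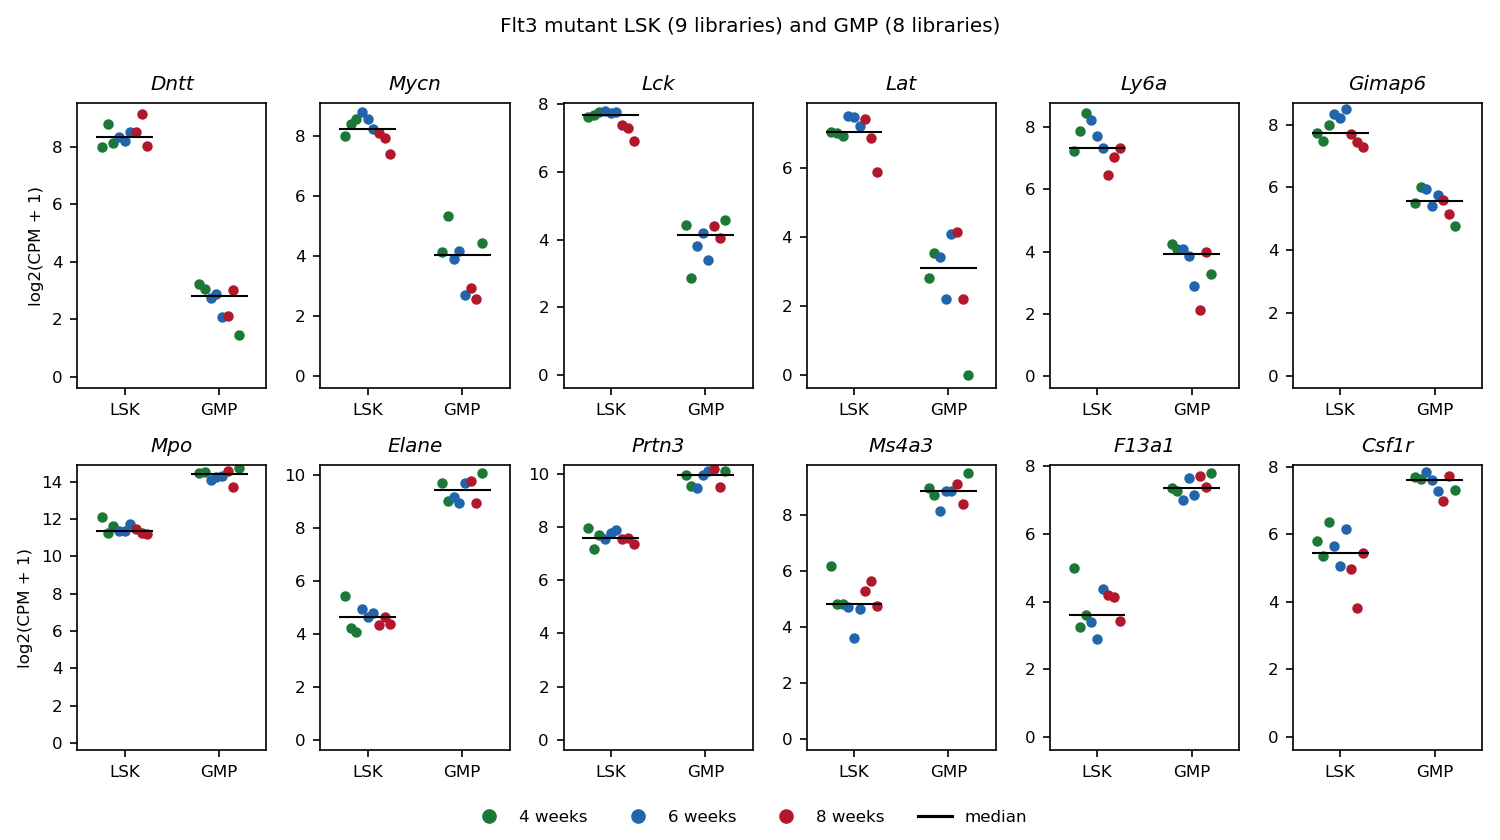
Level of 12 genes in each Flt3 mutant library at 4 weeks (green), 6 weeks (blue) and 8 weeks (red), as log2(CPM + 1), with 9 LSK and 8 GMP libraries per gene and the median as a line. The upper row shows genes higher in LSK and the lower row genes higher in GMP. LSK and GMP points do not overlap in any of the 12 panels. For Dntt, Mycn, Lck, Lat, Ly6a, Elane, Ms4a3 and F13a1 this was a condition of their choice as largest rises or falls.

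All 6 genes of the Gimap family that passed the filter (of 8 found) were higher in LSK, with a median of 2.49. These encode GTPases of the immunity-associated protein family, known for their part in lymphocyte survival. Gimap6 had 157, 213 and 364 CPM in LSK and 26.2, 46.2 and 64.1 in GMP, a difference of 2.30 ± 0.13 (edgeR adjusted p = 3.00e-15). Gimap5 rose by 2.69 ± 0.27, Gimap7 by 2.93 ± 0.24 and Gimap1 by 2.13 ± 0.17. For these 4 genes no GMP library reached an LSK library. The genes lie in 1 cluster and resemble each other, so reads that fit several of them make the split between members uncertain.

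Among 24 stem cell genes, 9 passed the filter, of which 4 were higher in LSK and none lower, with a median of 0.52. Without the filter 10 of 24 were higher and 1 lower, Gata2 (-0.56 ± 0.18), named after its value was seen. Mycn, a MYC-family transcription factor, had 169.6, 299 and 447 CPM in LSK and 4.97, 15.5 and 39.9 in GMP, a difference of 4.39 ± 0.25 (edgeR adjusted p = 1.09e-09), and no libraries overlapped. Msi2, an RNA-binding protein of stem cells, rose by 1.53 ± 0.24, also without overlap, while Gata3 (2.72 ± 0.36) was called with overlapping libraries. Gata3 had no count in the third LSK replicate at 8 weeks. Without the code number 14 libraries Gata2 was called lower with the filter too.

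Of 6 Hox genes and cofactors tested (14 found), 4 were higher in LSK, with a median of 0.93. Mn1, a transcriptional coactivator first found in leukemia, had 13.2, 21 and 60.8 CPM in LSK and 0, 0.568 and 3.63 in GMP, a difference of 4.42 ± 0.51 (edgeR adjusted p = 2.00e-07), and its groups did not overlap. Meis1, which binds DNA together with HOX proteins, had 42.4, 88.7 and 99.6 CPM in LSK and 14.3, 25.4 and 48.1 in GMP and rose by 1.51 ± 0.18 (edgeR adjusted p = 6.41e-08), with overlap. Hoxa10 rose by 1.13 ± 0.23 and Hoxa9 by 0.69 ± 0.15. None of the 6 was called lower.

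Other genes among the 12 largest rises were Pglyrp2 (4.18 ± 0.38), an amidase that cuts peptidoglycan, Camk2b (3.88 ± 0.43), a calmodulin-dependent kinase, Dkkl1 (3.60 ± 0.26) and Hbb-b2 (3.98 ± 0.26), an adult beta globin gene whose reads may be shared with its near-identical neighbour. Hbb-b2 had 48.6, 84.6 and 148 CPM in LSK and 0.907, 7.17 and 10.5 in GMP. From the erythroid list 5 of 14 genes passed the filter and only Car2, a carbonic anhydrase, was called (3.01 ± 0.22). Of 2 megakaryocyte genes that passed, Gfi1b, a repressor of both lineages, was called higher (2.97 ± 0.25). The summed erythroid level given above was also higher in every LSK than in every GMP library, and the part of such cells in these results was not tested.

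Interferon response genes were higher in LSK wherever they were called. Of 30 found, 25 passed the filter and 14 were called, all higher in LSK, with a median of 0.78. Rtp4, an interferon-induced chaperone of receptors, had 50.1, 107 and 182 CPM in LSK and 2.22, 15.6 and 31.5 in GMP, a difference of 2.76 ± 0.31 (edgeR adjusted p = 4.19e-06). Ifit1, which binds foreign RNA, rose by 2.53 ± 0.46, the exonuclease gene Isg20 by 1.86 ± 0.25 and Oasl2 by 1.60 ± 0.24. The libraries of the groups did not overlap for any of these 4. The count was 12 without the third LSK replicate at 8 weeks and 15 without both code number 14 libraries.

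Genes that follow STAT5, the transcription factor downstream of Flt3 mutants, were partly higher in LSK. Of 14 tested (17 found), 7 were called higher and 2 lower, with a median of 0.72. Socs2, a feedback inhibitor of cytokine signalling, had 750.2, 975 and 1146 CPM in LSK and 477, 538 and 663 in GMP, a difference of 0.76 ± 0.07 (edgeR adjusted p = 1.00e-09). Pim2, a survival kinase, had 68.5, 158.01 and 220.1 CPM in LSK and 6.99, 19.7 and 22.7 in GMP, a difference of 2.99 ± 0.16 (edgeR adjusted p = 1.51e-15). Every LSK library was above every GMP library in both. Socs1 rose by 1.37 ± 0.15 and Il2ra, the alpha chain of the interleukin 2 receptor, by 2.99 ± 0.39. The 2 that were lower were Myc (-0.20 ± 0.07) and Id1 (-0.85 ± 0.21), named after their values were seen.

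Feedback genes of the MAPK cascade moved in both directions: of 11 tested (21 found), 4 were higher and 2 lower, and the median was 0.02. Dusp5, a phosphatase that switches off ERK in the nucleus, had 160.3, 201 and 267 CPM in LSK and 75.1, 86.6 and 118 in GMP, a difference of 1.12 ± 0.10 (edgeR adjusted p = 3.27e-10), without overlap. Dusp2, a related phosphatase, rose by 0.69 ± 0.13. Jun, an immediate early transcription factor, had 26.6, 47.8 and 71.9 CPM in LSK and 61.9, 85.4 and 161 in GMP and fell by 0.98 ± 0.16 (edgeR adjusted p = 3.70e-05), with overlapping libraries.

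The receptor itself was transcribed in both cell types. Flt3 lies at chr5:147330741-147400489 (GRCm38.p6). It had 228, 256 and 334 CPM in LSK and 122, 145 and 173 in GMP, and each LSK library was above each GMP library. The difference was 0.80 ± 0.08 (edgeR adjusted p = 2.92e-09), and in the fit with 1 mean per cell type and week it was 0.80 ± 0.15 at 4, 0.86 ± 0.14 at 6 and 0.67 ± 0.17 at 8 weeks. Counts per gene do not tell the mutant from the normal allele. Cd48, which marks multipotent progenitors rather than stem cells within LSK, had 1014, 1234 and 1369 CPM in LSK and 522, 691 and 818 in GMP, a difference of 0.79 ± 0.07 (edgeR adjusted p = 3.58e-11), again without overlap.

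Of 21 cytokine receptor genes tested (29 found), 3 were higher in LSK and 9 lower, with a median of -0.33. Il2rg, the gamma chain shared by several lymphoid interleukin receptors, had 130.5, 288 and 332 CPM in LSK and 88.7, 102 and 131 in GMP and rose by 1.31 ± 0.14 (edgeR adjusted p = 1.89e-07). Csf1r, the receptor of macrophage colony-stimulating factor, had 13, 42.4 and 82.2 CPM in LSK and 127, 196 and 231 in GMP and fell by 2.06 ± 0.20 (edgeR adjusted p = 5.54e-07). Il6st, the signalling chain shared by the interleukin 6 family, fell by 1.50 ± 0.18. Csf1r and Il6st did not overlap between the groups, while Il2rg did.

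Genes of the primary granule list fell in LSK, and so were higher in GMP. The list also holds genes that are not granule enzymes, such as Ms4a3, Clec12a and Mgst1. All 15 listed genes passed the filter, 13 were called lower and none higher, and the median was -1.52. For 12 of them no LSK library overlapped a GMP library, and the count was 13 without the code number 14 libraries too. Mpo, Elane, Prtn3 and Ctsg encode myeloperoxidase, neutrophil elastase, proteinase 3 and cathepsin G, the main enzymes of the granule. Their 250 bases before the transcription start (RefSeq, GRCm38.p6) are shown because the 4 genes fell together, with capitals marking the letters GAGGAA, the core bound by PU.1, and AACTG, a core bound by Myb, on either strand:
Mpo, chr11:87793534-87793783, plus strand: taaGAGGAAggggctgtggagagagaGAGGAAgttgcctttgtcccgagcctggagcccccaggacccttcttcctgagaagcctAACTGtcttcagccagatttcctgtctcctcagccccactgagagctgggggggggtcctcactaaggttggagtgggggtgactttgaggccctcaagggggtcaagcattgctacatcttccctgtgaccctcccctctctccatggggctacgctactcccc
Elane, chr10:79886062-79886311, plus strand: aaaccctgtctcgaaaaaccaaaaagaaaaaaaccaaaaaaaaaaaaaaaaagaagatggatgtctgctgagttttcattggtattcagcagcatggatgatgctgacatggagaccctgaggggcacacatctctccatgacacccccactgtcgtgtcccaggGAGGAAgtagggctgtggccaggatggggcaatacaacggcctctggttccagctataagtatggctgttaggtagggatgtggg
Prtn3, chr10:79879417-79879666, plus strand: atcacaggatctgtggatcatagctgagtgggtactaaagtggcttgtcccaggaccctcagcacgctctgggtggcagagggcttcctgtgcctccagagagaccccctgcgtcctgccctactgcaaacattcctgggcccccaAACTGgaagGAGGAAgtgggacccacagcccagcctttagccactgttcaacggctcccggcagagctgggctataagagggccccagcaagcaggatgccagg
Ctsg, chr14:56102575-56102824, minus strand: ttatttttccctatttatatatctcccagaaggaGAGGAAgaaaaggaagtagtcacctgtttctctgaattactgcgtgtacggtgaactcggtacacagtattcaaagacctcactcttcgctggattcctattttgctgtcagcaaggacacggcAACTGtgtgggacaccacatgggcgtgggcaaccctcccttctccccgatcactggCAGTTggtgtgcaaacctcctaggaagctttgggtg

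GAGGAA was found in all 4 windows, on the strand shown or the other, against 23.3% of 32851 promoter windows of this length. AACTG was found in those of Mpo, Prtn3 and Ctsg, against 39.1%. TTGCNNAA, a C/EBP core searched in the same way, was in none of the 4 and in 9.56% of all windows. These matches describe the letters only. Prtn3 (chr10:79879667-79883174) and Elane (chr10:79886312-79888216) are neighbours on chromosome 10.

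Mpo had 2329, 2655 and 4485 CPM in LSK and 13460.2, 21504 and 27058 in GMP, a difference of -2.88 ± 0.14 (edgeR adjusted p = 2.65e-10). Elane had 15.8, 23.7 and 42.8 CPM in LSK and 494, 705 and 1090.2 in GMP, a difference of -4.93 ± 0.25 (edgeR adjusted p = 2.13e-09). Prtn3 had 142, 191 and 251 CPM in LSK and 702, 991 and 1169.8 in GMP, a difference of -2.31 ± 0.13 (edgeR adjusted p = 9.28e-11). Every GMP library was above every LSK library in these 3 genes, and the first LSK replicate at 4 weeks was the highest of the LSK for Mpo and Elane. Ctsg had 238, 430.4 and 524 CPM in LSK and 853, 1024 and 1482 in GMP and fell by 1.50 ± 0.16 (edgeR adjusted p = 3.99e-06), also without overlap. LSK libraries were not free of granule transcripts, as the lowest LSK value of Mpo shows.

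Ms4a3, a membrane gene of GMP, fell by 3.90 ± 0.25 and Hp, haptoglobin, fell by 3.69 ± 0.15. Smaller falls were called for Mgst1, a glutathione transferase (-1.52 ± 0.11), the inhibitory lectin receptor Clec12a (-1.30 ± 0.09) and Plac8 (-0.82 ± 0.07). None of these 5 overlapped between the groups. Most late neutrophil genes, those of the secondary and tertiary granules, did not pass the filter: 4 of 17 did, and Mmp8, neutrophil collagenase (-3.67 ± 0.40), and Lyz2, lysozyme (-0.59 ± 0.09), were lower. Padi4, an enzyme that citrullinates histones in neutrophils, went the other way (1.59 ± 0.24).

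Of 14 monocyte genes tested (22 found), 9 were lower in LSK and none higher, with a median of -1.23. F13a1, the coagulation factor XIII subunit of monocytes, had 6.45, 11.2 and 30.7 CPM in LSK and 129, 163.99 and 222 in GMP, a difference of -3.65 ± 0.20 (edgeR adjusted p = 3.65e-12). Ly6c2, a surface antigen of monocytes, had 29.7, 43.8 and 86.2 CPM in LSK and 402, 511 and 886 in GMP and fell by 3.49 ± 0.21 (edgeR adjusted p = 7.82e-09). Ms4a6c fell by 2.24 ± 0.11 and Emb, embigin, fell by 1.19 ± 0.08. For all 4 the groups did not overlap. Igsf6 (-3.40 ± 0.30) and Tmem178 (-3.25 ± 0.22) were also among the 12 largest falls.

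Myeloid transcription factors fell in LSK more often than they rose: of 15 tested (18 found), 9 were lower and 1 higher, with a median of -0.53. Cebpd, a C/EBP factor, had 0, 3.26 and 11.4 CPM in LSK and 22, 33.5 and 55.9 in GMP, a difference of -3.23 ± 0.31 (edgeR adjusted p = 6.16e-10). Cebpa, without which GMP are not formed, had 7.12, 11.4 and 16.3 CPM in LSK and 22.9, 24.8 and 28.9 in GMP and fell by 1.36 ± 0.22 (edgeR adjusted p = 1.24e-05). In both no LSK library reached a GMP library. Irf8, which directs progenitors to monocytes and dendritic cells, fell by 0.90 ± 0.12 and Zeb2 fell by 1.44 ± 0.19, both with overlap. The 1 that rose was Etv3 (1.04 ± 0.33), named after its value was seen.

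Genes of basophils, mast cells and eosinophils were lower in LSK, 6 of 7 tested (19 found) and none higher, with a median of -3.05. Prg2, the major basic protein of eosinophils, had 0.35, 4.03 and 41.4 CPM in LSK and 56.1, 201 and 819 in GMP, a difference of -5.07 ± 0.41 (edgeR adjusted p = 5.70e-07). Hdc, which makes histamine, had 0, 2.64 and 9.49 CPM in LSK and 51.2, 67.7 and 138 in GMP, a difference of -4.51 ± 0.24 (edgeR adjusted p = 7.13e-16). Cpa3, a carboxypeptidase of mast cells, fell by 3.05 ± 0.36 and Fcer1g, the shared Fc receptor gamma chain, fell by 1.23 ± 0.09. None of the 4 overlapped between the groups, although Prg2 varied widely within GMP. The summed level of these genes was higher in GMP, as given above, and the part of such cells in the result was not tested.

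The machinery of secretion was lower in LSK as a whole list. Of 28 endoplasmic reticulum and secretory genes tested (29 found), 25 were called lower and none higher, with a median of -0.56. Hspa5, the main chaperone of the compartment, had 708, 839 and 1062 CPM in LSK and 1129.6, 1366 and 1569 in GMP, a difference of -0.72 ± 0.08 (edgeR adjusted p = 5.29e-09). Calr, calreticulin, fell by 0.90 ± 0.08, the disulfide isomerase gene P4hb fell by 0.77 ± 0.08 and Sdf2l1 fell by 1.10 ± 0.10. These falls were smaller than those of the granule enzymes, and in all 4 genes the groups did not overlap. Of 19 lysosome genes tested (20 found), 14 were lower and 1, Ctsc, higher, with a median of -0.44. Hexa, a hexosaminidase subunit, fell by 0.94 ± 0.09 and the cathepsin genes Ctsz (-0.95 ± 0.10) and Ctsb (-0.53 ± 0.09) were lower too. Ctsc encodes cathepsin C, which activates the granule proteases, and it differed by 0.31 ± 0.08. The phagocyte oxidase list had 4 of 7 genes lower and none higher, with a median of -0.50, among them the proton channel gene Hvcn1 (-1.43 ± 0.17), the cytosolic subunit gene Ncf1 (-0.50 ± 0.10) and the membrane subunit gene Cybb (-1.68 ± 0.27).

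**Figure D2:**
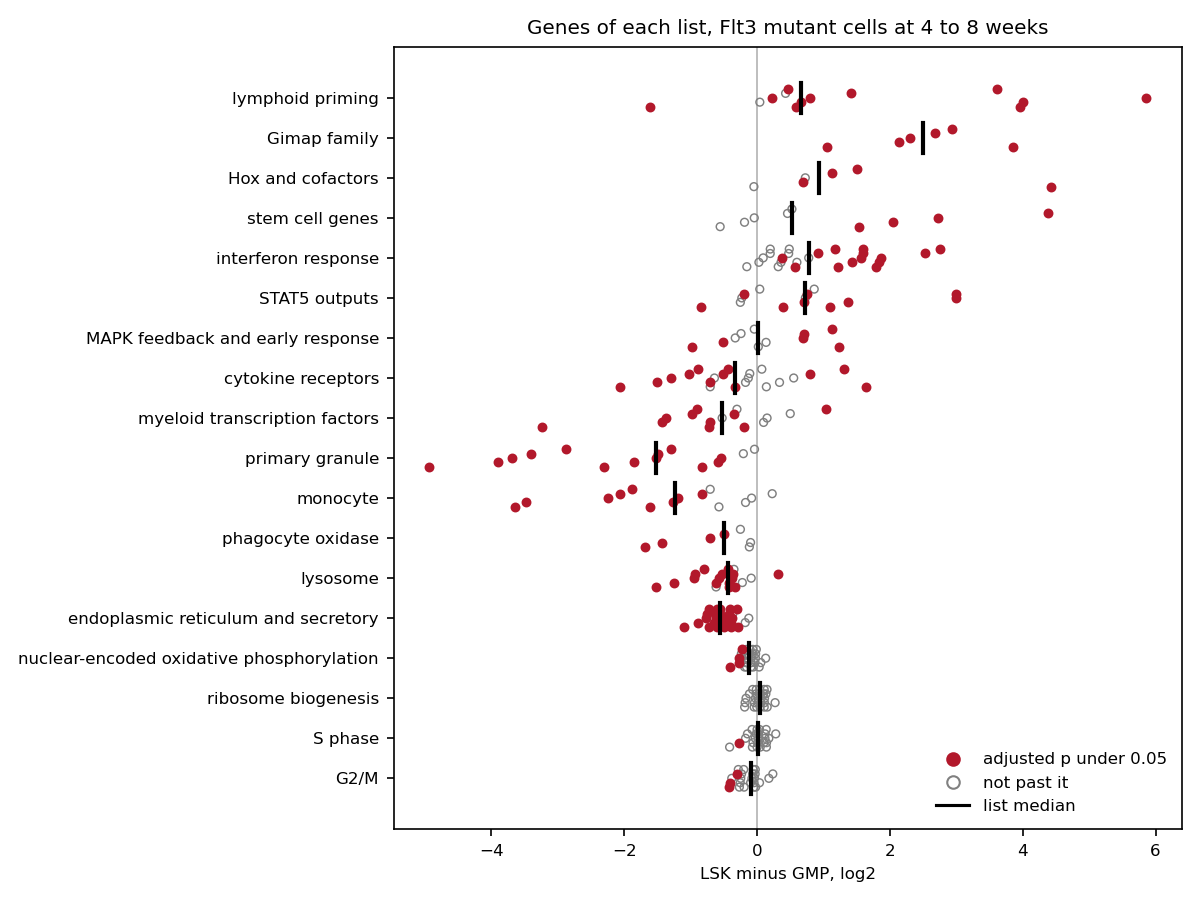
LSK minus GMP difference on the log2 scale of each tested gene in 18 lists (points, filled where the adjusted p was under 0.05) with the list median as a bar. Lymphoid, Gimap, Hox and interferon genes lie to the right (higher in LSK), granule, monocyte and secretory genes to the left, and cell cycle and ribosome genes around 0.

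The called genes of the S phase, G2/M and oxidative phosphorylation lists each differed by less than 0.5, and their counts stand beside 15.7% called over all genes tested. Of 24 S phase genes tested (25 found) 1 was called, Rrm2, a ribonucleotide reductase subunit, at -0.27 ± 0.08 (edgeR adjusted p = 0.022). Its call was lost without 1 of 4 libraries: adjusted p = 0.0641 without GMP replicate 3 at 6 weeks, 0.0727 without GMP replicate 1 at 4 weeks, 0.0517 without LSK replicate 3 at 4 weeks and 0.0535 without LSK replicate 1 at 6 weeks. It was also lost without the 3 libraries of high mitochondrial share (0.0523). Of 24 G2/M genes tested (25 found) 3 were lower, Cenpa (-0.42 ± 0.08), Birc5 (-0.31 ± 0.07) and Aurka (-0.40 ± 0.11), and 5 without the code number 14 libraries. The medians of the lists were 0.01 and -0.09. None of 27 ribosome biogenesis genes was called by edgeR or by DESeq2 (1 at an unadjusted edgeR p under 0.05), with a median of 0.04. Of 28 nuclear-encoded oxidative phosphorylation genes 4 were lower, among them Cycs, cytochrome c (-0.41 ± 0.09), and Ndufa4 (-0.27 ± 0.07), with a median of -0.12.

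Glycolysis genes split: of 19 tested (20 found), 4 were higher and 4 lower, with a median of -0.06. Hk3, a hexokinase of myeloid cells, had 32.1, 58.9 and 90.1 CPM in LSK and 181, 216 and 297 in GMP and fell by 1.99 ± 0.14 (edgeR adjusted p = 3.65e-11), and the kinases Pfkp (-0.52 ± 0.11) and Hk2 (-0.79 ± 0.18) fell too. Aldoc, an aldolase, rose by 1.19 ± 0.28. Of 8 quiescence genes tested (13 found), Cdkn1a, a cyclin kinase inhibitor (0.59 ± 0.11), and Txnip, a thioredoxin inhibitor (0.72 ± 0.19), were higher and none lower. Adhesion genes were lower where called, 4 of 12, with a median of -0.19, beside 15.7% called over all genes tested. Among them were the selectin ligand Selplg (-0.47 ± 0.09) and the phagocytosis inhibitor Cd47 (-0.33 ± 0.06).

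Of 14 MHC class II and dendritic cell genes tested (22 found), 2 were higher in LSK and none lower, with a median of 0.45 and with overlap in both. This share is near the 15.7% called over all genes tested. Cd86, a costimulatory ligand, rose by 1.04 ± 0.31 (edgeR adjusted p = 0.0165), and Xcr1, a chemokine receptor of cross-presenting dendritic cells, by 1.37 ± 0.41 (edgeR adjusted p = 0.0311). Xcr1 had 16.8, 30 and 157 CPM in LSK and 2.22, 11.4 and 39 in GMP, with the highest value of each group in its code number 14 library. The call of Xcr1 was lost without GMP replicate 1 or 3 at 4 weeks (edgeR adjusted p = 0.0594 and 0.0548), GMP replicate 1 or 2 at 6 weeks (0.0622 and 0.0591) or LSK replicate 2 at 6 weeks (0.0564). Single genes of other lists were called as well: Thy1 of T cells was higher (1.32 ± 0.34), Pecam1 of endothelium lower (-0.88 ± 0.21), and Fcgr2b, an inhibitory Fc receptor, lower (-1.55 ± 0.18).

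Whether the LSK to GMP difference depended on the week was asked with a test of 2 degrees of freedom over the same 17 libraries. No gene of 9987 was called (0%) by edgeR, with 271 genes at an unadjusted p under 0.05 and a lowest adjusted p of 0.124. DESeq2 called 2 genes, and edgeR with the replicate block called 4 (483 at an unadjusted p under 0.05) and without the 3 libraries of high mitochondrial share 1. With 2 or 3 libraries per cell type and week, a lack of calls does not show that the differences were equal. Dntt differed by 5.55 ± 0.37, 5.91 ± 0.35 and 6.05 ± 0.42 at 4, 6 and 8 weeks, and Elane by -5.15 ± 0.45, -4.61 ± 0.43 and -5.16 ± 0.51. For Mycn the values were 3.51 ± 0.27, 4.86 ± 0.28 and 5.28 ± 0.39.

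The smallest p of this test belonged to Mcpt8, a protease of basophils, with differences of -1.90 ± 0.17 at 4, -0.79 ± 0.17 at 6 and -0.63 ± 0.19 at 8 weeks (edgeR adjusted p = 0.124). It was called by DESeq2 (adjusted p = 0.0125), and by edgeR without GMP replicate 1 at 8 weeks (0.0259) or LSK replicate 2 at 6 weeks (0.0134). Cd63, a tetraspanin of granule membranes, differed by -1.52 ± 0.23, -0.11 ± 0.23 and -0.15 ± 0.26, with an edgeR adjusted p that rounds to 1 and a DESeq2 adjusted p of 0.0125. Without LSK replicate 3 at 8 weeks edgeR gave an adjusted p of 7.00e-04 for Cd63. Cpa3 differed by -4.44 ± 0.39, -2.47 ± 0.37 and -2.09 ± 0.43, and Anxa1, a regulator of inflammation, by -1.22 ± 0.18, -0.32 ± 0.17 and -0.17 ± 0.20. In all 4 genes the fall was largest at 4 weeks, and 3 of them, Mcpt8, Cd63 and Cpa3, are known from basophils and mast cells. The summed level of the basophil, mast cell and eosinophil list was 2128 to 2944 CPM in the 3 GMP libraries at 4 weeks and 1333 to 1556 in the 5 later ones. The part of such cells was not tested.

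**Figure D3:**
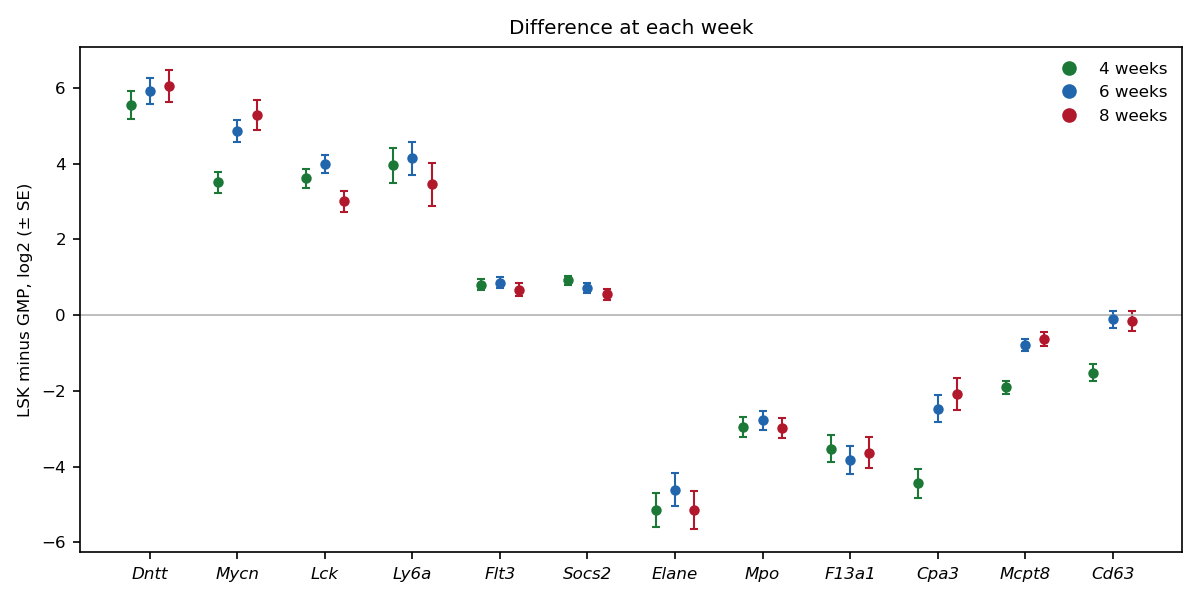
LSK minus GMP difference (log2, with its standard error) at 4, 6 and 8 weeks for 12 genes, from the fit with 1 mean per cell type and week. Dntt, Lck, Elane and Mpo keep their direction at each week, and Cpa3, Mcpt8 and Cd63 have their largest negative value at 4 weeks.

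The WT libraries put the size of the mutant difference in context. In a joint fit of the 17 mutant and 6 WT libraries, the LSK to GMP difference was called for 3103 of 10331 genes (30%) in WT (1663 higher, 16.1%, and 1440 lower, 13.9%), with 3 libraries against 3 at 4 weeks. At the same week and with the same number of libraries it was called for 558 genes (5.4%) in the mutant, and for 1606 (15.5%) over the mutant's 3 weeks. Total counts were not matched: GMP had 1014847, 2009072 and 1491029 in WT and 572370, 830550 and 951622 in the mutant at 4 weeks. LSK had 2849650, 808900 and 2603446 in WT and 1496905, 1068300 and 3030228 in the mutant at 4 weeks. The part of depth in these counts of calls was not tested. The median absolute difference was 0.51 in WT, 0.29 in the mutant at 4 weeks and 0.22 over its 3 weeks. The difference between mutant and WT itself was called for 1085 genes (10.5%), 627 toward higher (6.07%) and 458 toward lower values (4.43%), and for 584 genes with the mutant at 4 weeks alone. In 1019 of the 1085 the absolute difference was smaller in the mutant. As a gene is more readily called where its WT difference came out large, part of this excess is set by the choice of genes. Leaving out WT GMP replicate 1 brought the 1085 down to 618.

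Genes of the primary granule list differed less between LSK and GMP in the mutant. In WT all 15 were lower in LSK, with a median of -3.40 against -1.54 in the mutant, and for 10 of 15 the change in the difference was called, each toward a smaller fall (median change 1.19, against -0.08 over all genes). It was not called for Elane, Ms4a3, Hp, Igsf6 and Mgst1. Ctsg had 255, 335 and 287 CPM in the 3 WT LSK and 4953, 3338 and 3279 in the 3 WT GMP libraries, a WT difference of -4.08 against -1.48 in the mutant. The change was 2.59 ± 0.33 (edgeR adjusted p = 1.03e-04). Mutant GMP were below every WT GMP library for Ctsg, with a highest value of 1482 CPM, while the LSK ranges overlapped.

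Cst7, an inhibitor of the proteases that mature granule enzymes, had 68.8, 64.3 and 84.5 CPM in WT LSK and 645, 565 and 638 in WT GMP, and 285, 382 and 433 CPM in LSK and 409, 526 and 603 in GMP of the mutant. Its change was 2.84 ± 0.18 (edgeR adjusted p = 2.18e-14), and here mutant LSK were above every WT LSK library. Prss57, a granule serine protease, had 40.7, 94 and 73.4 and 319, 354 and 351 in WT, and 58.7, 96.7 and 122 CPM in LSK and 70.7, 97.9 and 162 in GMP of the mutant, a change of 2.50 ± 0.34. Plac8 (1.47 ± 0.14), Nkg7 (1.58 ± 0.16), a granule membrane protein, and Prtn3 (1.19 ± 0.26) changed in the same direction. Mpo had 2296, 3628 and 3801 in WT LSK and 33262, 38939.9 and 43365 in WT GMP and changed by 1.01 ± 0.28 (edgeR adjusted p = 0.0301). That call was lost without WT GMP replicate 1, 2 or 3 (adjusted p = 0.0523, 0.0554 and 0.0743) or WT LSK replicate 1 (0.0842).

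List counts and medians of the comparison with WT cover the genes that passed the filter in the mutant libraries alone, since further genes entered the joint fit through their WT levels. The secretory list had 18 of 28 such genes with a called smaller fall in the mutant, with list medians of -1.12 in WT and -0.55 in the mutant. Without the code number 14 libraries 15 of its 29 genes in the joint fit were called in that direction. Examples are Manf (1.19 ± 0.17), a stress-induced factor of the endoplasmic reticulum, and Sec61b (1.12 ± 0.15), a subunit of its protein channel. Nuclear-encoded oxidative phosphorylation genes had 17 of 28 called in that direction (15 without the code number 14 libraries), with medians of -0.68 and -0.13. Cox7b, a cytochrome oxidase subunit, had 488, 473 and 491 in WT LSK and 937, 826 and 762 in WT GMP, and 485, 573 and 616 CPM in LSK and 474, 568 and 638 in GMP of the mutant, a change of 1.03 ± 0.14 (edgeR adjusted p = 2.28e-06). WT groups were apart and mutant groups overlapped. Cycs changed by 1.05 ± 0.17.

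**Figure D4:**
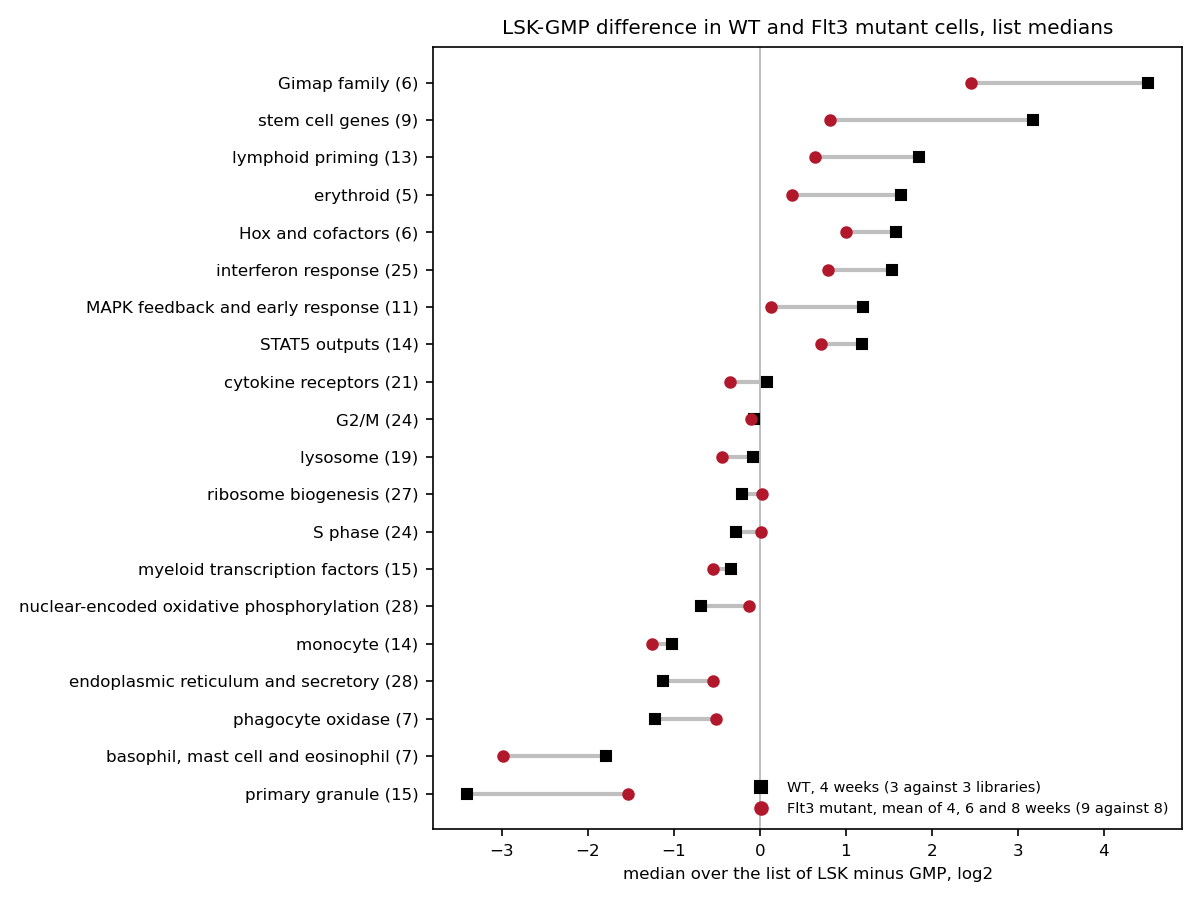
Median LSK minus GMP difference (log2) over the genes of 20 lists that passed the filter in the mutant libraries alone, in WT (black squares, 3 against 3 libraries at 4 weeks) and Flt3 mutant cells (red circles, 9 against 8 libraries), with the number of genes in brackets. Of the lists shown, the mutant median lies nearer to 0 for primary granule genes (-3.40 to -1.54) and 13 others, and farther from 0 for basophil (-1.79 to -2.99), monocyte, lysosome, cytokine receptor, myeloid transcription factor and G2/M genes.

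Of the 9 stem cell genes that passed the filter in the mutant libraries alone, 7 were higher in WT LSK than in WT GMP and none lower, with a median of 3.18 against 0.81 in the mutant, and 3 had a called decrease of the difference. Procr is not among the 9. Procr had 37.2, 30.9 and 32.3 CPM in WT LSK, above every mutant LSK library, and 1.97, 0 and 1.34 in WT GMP, a change of -4.16 ± 1.11 (edgeR adjusted p = 0.0122). The size of this change rests on few counts in WT GMP. Without GMP replicate 3 at 6 weeks the change was -3.22 (adjusted p = 1.00). Gata2, a stem cell transcription factor, had 258, 248 and 267 in WT LSK and 53.2, 86.6 and 62.4 in WT GMP, and 16.3, 28.4 and 55.7 CPM in LSK and 21.3, 43.8 and 75.9 in GMP of the mutant, a change of -2.05 ± 0.31 (edgeR adjusted p = 2.88e-05). Mllt3 (-3.62 ± 0.73) and Meis1 (-1.58 ± 0.31) changed in the same direction, as did Gimap6 (-2.21 ± 0.28). Kit had 215, 283 and 218 in WT LSK and 55.2, 106 and 87.9 in WT GMP, groups that did not overlap, and its change was -1.30 ± 0.24 (edgeR adjusted p = 3.33e-04).

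Flt3 had 159.7, 219 and 219.7 CPM in WT LSK and 16.8, 26.4 and 28.2 in WT GMP, so WT GMP lay far below the mutant GMP values given above. The WT difference was 2.69 and the change -1.90 ± 0.20 (edgeR adjusted p = 1.17e-08). Socs2 showed a like pattern: it had 78.6, 56.9 and 33.8 in WT LSK and 1.97, 0.498 and 1.34 in WT GMP, below every mutant library of either cell type at 4 to 8 weeks. Its change was -4.51 ± 0.43 (edgeR adjusted p = 6.42e-09), but the size of this change rests on few counts in WT GMP. Cd48 changed the other way (1.23 ± 0.15), with 349, 479.7 and 418 in WT LSK and 488, 450.5 and 392 in WT GMP. Of the 11 MAPK feedback and early response genes that passed in the mutant alone, 7 had a called decrease of the difference, among them Jun (-2.20 ± 0.29) and Fos (-1.58 ± 0.31).

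The largest changes toward higher values were those of S100a8 (3.56 ± 0.82), a calcium-binding protein of neutrophils, Dstn (2.88 ± 0.56), Cst7, Ccr2 (2.80 ± 0.68), a chemokine receptor of monocytes, Sema4a (2.68 ± 0.34) and Ctsg. S100a8 had 358, 284 and 634 CPM in WT GMP and at most 19.2 in mutant GMP. The largest toward lower values were those of Lgmn (-4.81 ± 0.85), Axl (-4.85 ± 1.17), Slc40a1 (-4.29 ± 0.90) and Socs2, together with Tox and Gimap7, which had no count in WT GMP. For the latter a fitted change has no meaning as a size: Tox had 15.1, 6.18 and 13.1 in WT LSK and 35.4, 44 and 78.4 CPM in LSK and 16.9, 22 and 31.7 in GMP of the mutant, and Gimap7 12.3, 24.7 and 16.5 in WT LSK. The call of Axl was lost without the 3 libraries of high mitochondrial share (adjusted p = 0.376), without GMP replicate 3 at 8 weeks (0.318) or GMP replicate 1 at 4 weeks (0.0903), and that of Slc40a1 without GMP replicate 3 at 4 weeks (0.167).

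Axl and Slc40a1 are known from macrophages. The summed level of the macrophage list was 413 to 2603 CPM in WT LSK, 102 to 178 in WT GMP and 22.6 to 77.6 in mutant LSK. For erythroid genes the sums were 1828 to 2158, 292 to 387 and 166 to 373, and for mature B and plasma cell genes 963 to 2658, 199 to 341 and 356 to 541. The sum of MHC class II and dendritic cell genes was 1978 to 2701 in WT LSK and 1949.7 to 2178 in WT GMP, below every mutant library. The part of these cells in the differences from WT was not tested.

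**Figure D5:**
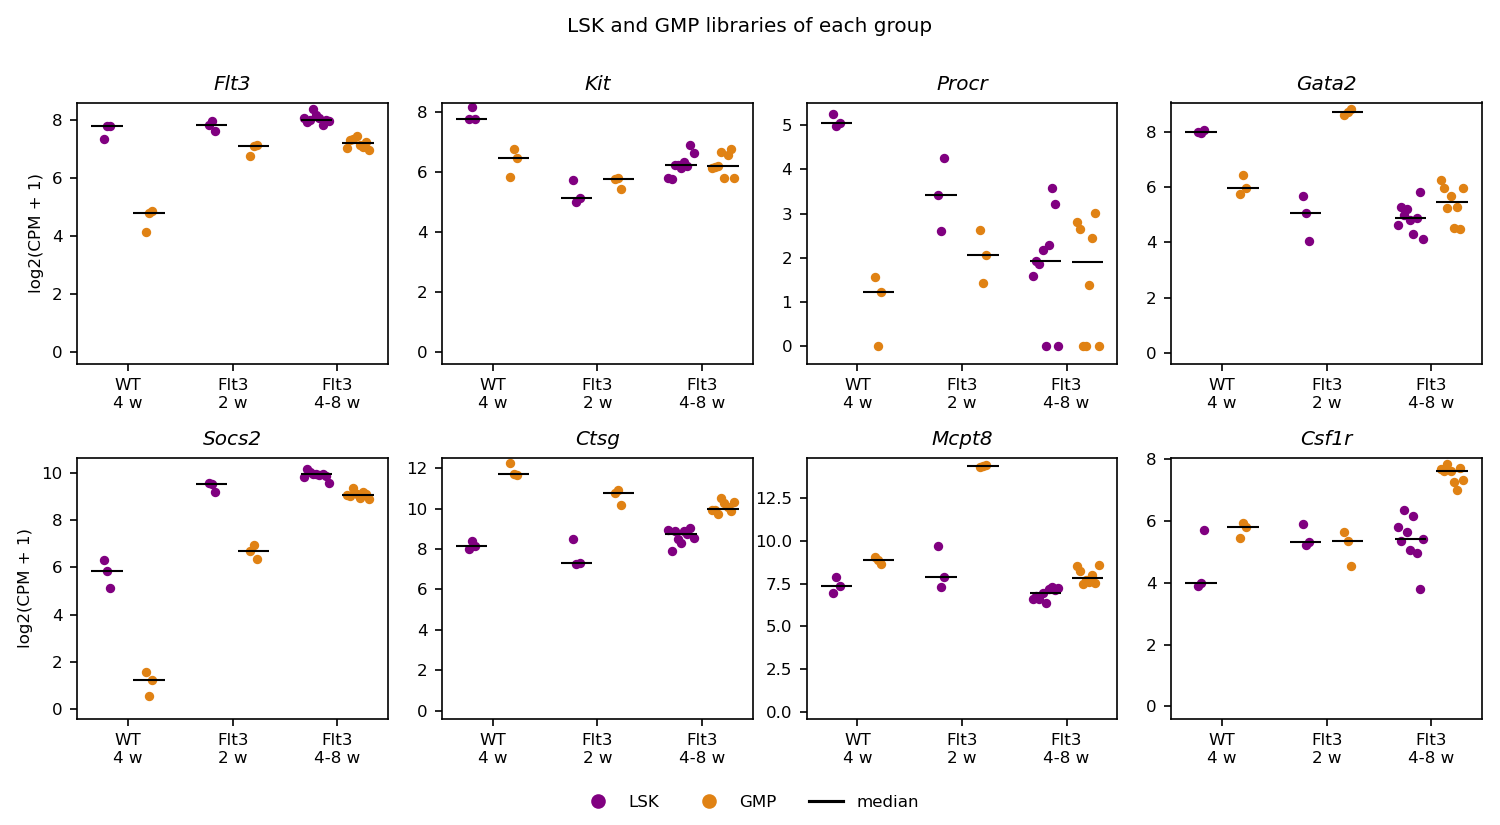
Level of 8 genes in LSK (purple) and GMP (orange) libraries, as log2(CPM + 1), for WT at 4 weeks (3 and 3 libraries), Flt3 mutant at 2 weeks (3 and 3) and Flt3 mutant at 4 to 8 weeks (9 and 8), with the median of each group as a line. Among LSK, Kit, Procr and Gata2 are highest in WT, Socs2 and Flt3 are higher in mutant than in WT GMP, and Mcpt8 and Gata2 are highest in GMP at 2 weeks.

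The difference at 4 to 8 weeks was also compared with that at 2 weeks, where it was called for 791 of 10332 genes (7.66%), 374 higher (3.62%) and 417 lower (4.04%). It was called for 1568 (15.2%) at 4 to 8 weeks in the same fit, and for 548 (5.3%) at 4 weeks with 3 libraries against 3. Here too total counts were not matched, as they ran from 624296 to 8249135 in the 6 libraries at 2 weeks. The change between the time points was called for 282 genes (2.73%), 162 toward higher (1.57%) and 120 toward lower values (1.16%), with a median over all genes of -0.00304. The 2-week libraries stood apart in their markers: basophil, mast cell and eosinophil genes summed to 65748 to 79876 CPM in GMP, mature B and plasma cell genes to 26159.5 to 76964 in LSK, and MHC class II and dendritic cell genes to 32228 to 55478 in LSK and 48209.8 to 75532 in GMP. The part of such cells in the comparisons with 2 weeks was not tested.

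Of the 14 monocyte genes that passed the filter in the libraries at 4 to 8 weeks alone, 8 had a called change toward lower values and none toward higher, with a median change of -0.79. Csf1r had 59.3, 36.1 and 39.3 CPM in the 3 LSK and 49.4, 22.4 and 40.5 in the 3 GMP libraries at 2 weeks, which overlapped, and the GMP at 4 to 8 weeks were all higher. Its change was -2.19 ± 0.39 (edgeR adjusted p = 0.00124). Ly86, which pairs with a toll-like receptor homologue, had 252, 231 and 302 in LSK and 197, 216 and 252 in GMP at 2 weeks, and 52.4, 79.2 and 153 CPM in LSK and 285, 328 and 385 in GMP at 4 to 8 weeks, a change of -2.02 ± 0.33 (edgeR adjusted p = 0.00132). Ms4a6c changed by -1.90 ± 0.22 and Ly6c2 by -2.11 ± 0.39.

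The largest changes toward higher values were in genes that were high in GMP at 2 weeks. Mcpt8 had 838, 157.52 and 235 CPM in LSK and 20700.0, 22464 and 21209.7 in GMP at 2 weeks, against a highest value of 379 in GMP at 4 to 8 weeks, a change of 4.76 ± 0.51 (edgeR adjusted p = 3.41e-05). Cyp11a1, a steroid-making enzyme also found in basophils and mast cells, changed by 5.72 ± 0.43, the channel gene Aqp9 by 5.40 ± 0.55 and the transcription factor gene Ets1 by 5.27 ± 0.39. Gp49a had 76.4, 123 and 107 CPM in GMP at 2 weeks and at most 1.42 in GMP later, with no count in 5 of those 8, so its fitted change of 6.06 rests on few counts and is no measure of size. Gata2 had 50.8, 32.5 and 15.5 in LSK and 397, 457 and 429 in GMP at 2 weeks and changed by 3.39 ± 0.38. Lat changed by 4.13 ± 0.43: it had 83.9, 84.9 and 79.8 in GMP at 2 weeks, and at most 16.7 in GMP later, while the LSK ranges overlapped.

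Toward lower values the largest changes were those of antibody genes that were high in LSK at 2 weeks. Igkc, the kappa light chain, had 46140.4, 18239.5 and 54918 CPM in LSK and 109.8, 1.6 and 84.5 in GMP at 2 weeks, and 3.15, 42.4 and 91.9 CPM in LSK and 1.7, 9.93 and 35.6 in GMP later, a change of -7.49 ± 1.29 (edgeR adjusted p = 0.00307). Ighm changed by -4.39 ± 0.41. Iglc2 had 4459.9, 4614 and 8831 in LSK at 2 weeks and at most 3.13 in the other libraries compared, so its fitted change of -11.28 rests on a few counts and is no measure of size. Antibody light chain genes resemble each other, and their counts are uncertain for that reason. The call of Igkc was lost without GMP replicate 3 at 6 weeks (adjusted p = 0.0537) or GMP replicate 1 at 8 weeks (0.125). That of Iglc2 was lost without GMP replicate 2 or 1 at 4 weeks (0.0681 and 0.0624), GMP replicate 2 at 6 weeks or GMP replicate 1 at 8 weeks (1.00 for both). Lgmn (-3.07 ± 0.57), Gimap7 (-3.03 ± 0.71) and the lectin receptor gene Clec7a (-2.92 ± 0.46) followed, of which the call of Gimap7, near 0 in GMP at 2 weeks, was lost without GMP replicate 3 at 8 weeks (0.0785), 2-week GMP replicate 3 (0.0686) or the 3 libraries of high mitochondrial share (0.0857). Socs2 had 762, 736 and 589.9 in LSK and 102, 81.7 and 121 in GMP at 2 weeks and changed by -1.88 ± 0.16 (edgeR adjusted p = 2.13e-11). Every GMP library at 4 to 8 weeks was above these 3.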

How the data were processed

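RNA was sequenced from sorted LSK and GMP cells, with kits that the labels name but do not tie to samples. The authors deposited raw read counts per gene symbol. Per the submitters' processing notes, STAR and featureCounts were used with mm10; versions and annotation are not given in the sources used here. The deposited counts were tested as they are with edgeR 4.0.16 in R 4.3.3: filterByExpr, TMM factors, robust quasi-likelihood fits and Benjamini-Hochberg adjustment over all genes tested. Models held week and cell type (17 libraries), cell type by week, or the LSK to GMP difference against that in WT or at 2 weeks (23 libraries each). The code was tested on simulated counts. DESeq2 1.42.0, other filters and scalings, a block on the code number and leaving out libraries were alternatives.

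Members and lists were chosen with earlier results of these data known. Of 570 listed genes 561 matched by symbol, 6 by synonym and 3 were not found. Named genes were the 12 largest rises and falls without overlap at a mean log2 CPM of at least 4, up to 4 members of each list with the smallest p, the sort markers, and for other contrasts the largest 6 each way and called list members. Predicted genes were passed over, and some members of the lists are counted but not reported here by name.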

Additional observations from a re-analysis of the deposited data

Results flagged for a closer look

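A single library lay far from the rest of its group for 22 of 194 pairs of a named gene and a cell type (Dixon's criterion at 95%). Chance gives about 1 in 20 only for normally distributed values, which CPM need not be. The genes were also chosen from these data, so the 22 are not compared with chance. The third LSK replicate at 8 weeks, of the lowest total count, accounted for 6 of the 22, with low Gata3 (0 CPM), Car2 (58.7) and Cd34 (662) and high Cd86 (48.9), Xcr1 (157) and Hk2 (101). The GMP library of the same code number had high Xcr1 (39). The first LSK replicate at 4 weeks was highest for Elane (42.8), Mpo (4485), Cebpd (11.4) and Mmp8 (4.01). The first GMP replicate at 4 weeks was highest or lowest for Fcgr3 (175), Ly6c2 (886) and Sdf2l1 (615), and the third GMP replicate for Mycn (39.9), Isg20 (55.7), Thy1 (1.05) and Jun (161). The others were Lax1 in the second GMP replicate at 4 weeks (7.22), Socs1 (18.9) in the first GMP replicate at 8 weeks, Cdkn1a in the second LSK replicate at 4 weeks (139) and Zeb2 in the second LSK replicate at 8 weeks (58.1).

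The LSK to GMP difference itself differed between mutant and WT for 1085 genes, tested in 1 model with edgeR. Toward higher values in the mutant the named genes, with the change on the log2 scale, were S100a8 (3.56), Dstn (2.88), Cst7 (2.84), Ccr2 (2.80), Sema4a (2.68), Ctsg (2.59), Prss57 (2.50), Nkg7 (1.58), Plac8 (1.47), Cd48 (1.23), Prtn3 (1.19), Manf (1.19), Sec61b (1.12), Cycs (1.05), Cox7b (1.03) and Mpo (1.01). Toward lower values they were Axl (-4.85), Lgmn (-4.81), Socs2 (-4.51), Slc40a1 (-4.29), Procr (-4.16), Mllt3 (-3.62), Gimap6 (-2.21), Jun (-2.20), Gata2 (-2.05), Flt3 (-1.90), Meis1 (-1.58), Fos (-1.58) and Kit (-1.30).

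Between 4 to 8 weeks and 2 weeks it differed for 282 genes. Named genes toward higher values were Gp49a (6.06), Cyp11a1 (5.72), Aqp9 (5.40), Ets1 (5.27), Mcpt8 (4.76), Lat (4.13) and Gata2 (3.39). Toward lower values they were Iglc2 (-11.28), Igkc (-7.49), Ighm (-4.39), Lgmn (-3.07), Gimap7 (-3.03), Clec7a (-2.92), Csf1r (-2.19), Ly6c2 (-2.11), Ly86 (-2.02), Ms4a6c (-1.90) and Socs2 (-1.88).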

How the results depend on the processing

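No named gene's difference changed sign under any alternative run, but values near 0 did. More genes were higher than lower in LSK without a filter (979 against 837) and at 6 weeks alone (282 against 264), and the median of the MAPK list was -0.05 without the third LSK replicate at 8 weeks. The count of 1362 genes between LSK and GMP was 621 when all libraries were thinned to the lowest total, so depth limits the calls, and 530, 546 and 459 within 4, 6 and 8 weeks, where fewer libraries were tested. Leaving out 1 library at a time gave 1162 to 1490 genes for LSK against GMP, 0 to 1 for cell type by week, 618 to 1172 for the difference from WT (618 without WT GMP replicate 1) and 196 to 306 for that from 2 weeks. Of the named genes called, 93 of 95, 25 of 29 and 15 of 18 kept their call without each library in turn. Under some other alternative 31, 5 and 1 lost their call, in LSK against GMP mostly within single weeks or after thinning (2 otherwise, Ndufa4 and Rrm2). Named genes were chosen for large differences or small p in these data, so these counts tell little about the other called genes. Cell type by week, with 0 genes, gave 2 by DESeq2, 6 without a filter and 1 without both code number 14 libraries or without the 3 libraries of high mitochondrial share, settings chosen after seeing the data. The latter gave 1322, 970 and 295 genes in the other comparisons. The difference from WT gave 584 genes with 4 weeks only. With size factors of DESeq2's kind 63.0% of its calls were toward higher values, against 57.8%. Causes were not tested. LSK and GMP libraries share code numbers. Same-numbered libraries correlated by 0.0193 to 0.243 in their deviations, over 0.1 in 3 of 8 pairs. Of the 2 or 3 GMP libraries of the same week, the one with the same number correlated best in 7 of 8. At 8 weeks, with 2 GMP libraries, the deviations of the GMP from their mean mirror each other, so the pairs of that week are not independent. The 7 of 8 was not compared with chance. Whether the numbers pair the libraries is not settled by these values, no label says so, and the main fits did not use them. With the replicate block 1402, 4, 1358 and 393 genes were called in the 4 comparisons, against 1362, 0, 1085 and 282 without it.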
